A study of Mus musculus with 2 samples.

Results

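The genes described here are 34 genes of glycolysis and gluconeogenesis, picked by symbol from the gene rows of the count matrix. They cover the enzymes that turn glucose into pyruvate and lactate, the proteins that regulate glucose phosphorylation and phosphofructokinase, the kinases that hold back pyruvate dehydrogenase, and the enzymes that run the path towards glucose. The 34 symbols stood on 35 of 32285 gene rows, because Aldoa had 2 identifiers.

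Glycolysis splits glucose into pyruvate in the cytosol, and lactate dehydrogenase can reduce that pyruvate to lactate. Most steps have several isozymes, encoded by separate genes, which differ in affinity for substrate, in regulation and in the tissues that use them. Gluconeogenesis reuses the reversible steps and bypasses the irreversible ones with enzymes that are best known in liver and kidney. Visceral endoderm, the layer that surrounds the early mouse embryo and nourishes it before the placenta works, shares many transcripts with liver.

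The data are a single-nucleus multiome of pooled E7.0 mouse embryos, at the time of gastrulation, in which each barcode reports nuclear RNA together with open chromatin. There were 2 samples, 1 for RNA and 1 for accessibility, both from the same nuclei, with no treatment or genotype contrast. The labels conflicted: titles, age and protocol named E7.0 embryos, while cell type, source and strain entries named goblet cells, sections of small intestine or distal colon, and RedMUC298trTg. A list of 8 goblet and intestinal genes held 153 of 145682614 UMIs in the kept nuclei (1.05 CPM, which are UMIs or peak counts scaled to a total of 1e6), against 1627 CPM for an epiblast list and 3549.5 CPM for a visceral endoderm list, so the classes below follow the embryo labels. The differences between classes have no replicate check, so no test was run. Intervals are 95% intervals of the counting error alone.

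Over 15341 barcodes there were 182201512 UMIs and 273131304 peak counts, and 12796 nuclei (83.4%) were kept, with medians of 10471 UMIs and 17350 peak counts. RNA was read in classes of nuclei clustered on accessibility, and promoters in classes clustered on RNA. Each value was thus read in clusters drawn from the other assay. Both sets of clusters were named from RNA of marker genes, so the classes used for RNA values were not independent of RNA. Clusters were named by marker genes as epiblast-like, primitive streak-like, embryonic mesoderm-like, haemato-endothelial progenitor-like, anterior streak with node and definitive endoderm-like, visceral endoderm-like, extraembryonic ectoderm-like, and ectoplacental cone and giant cell-like, called below without the suffix. The names were rebuilt from markers and may differ from those of the study. A ninth group was a cluster with no fitting name whose 10 leading genes included Sfrp5, Gckr, Hkdc1 and Foxq1; it was set apart after its values had been seen and is called the Sfrp5-high cluster. Its visceral endoderm list stood at 4843 CPM, between 13766 in visceral endoderm and at most 799 in the other classes. The 9 groups held 347 to 3723 nuclei and 4782671 to 39015271 UMIs, and 10170 of 11422 nuclei (89.0%) fell in the same group by either assay.

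Each group was set against all other kept nuclei, and a gene was counted as higher or lower at 1.5-fold or more with an interval that left out 1, provided that it reached 5 CPM over all nuclei. In RNA, 24 of the 35 rows reached 5 CPM. Gckr, Aldoc, Eno2, Pklr, Pdk2, Pdk4, Fbp1, Fbp2, Pck1, G6pc and the second Aldoa entry did not, and are described by their values but not counted. Hkdc1 reached it only through the 2 groups where it was higher (4.17 CPM over the nuclei outside them), so that its place among the lower genes of the 7 other groups was set by this minimum. The second Aldoa entry had 210 UMIs against 61510 for the first.

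Extraembryonic ectoderm, the trophoblast next to the epiblast that contributes to the placenta, had the most genes at a higher level. There 13 of 24 rows were higher and 3 were lower, where 12.9% and 25.7% of all 11391 genes tested were higher and lower. The median log2 fold of the 24 was 0.65, and that of all genes tested was -0.08. Ectoplacental cone and giant cells, which form the outer, invading part of the placenta, had 8 higher and 4 lower (background 11.9% and 25.1%), with a median of 0.30 against -0.03. Visceral endoderm had 3 higher and 10 lower (background 17% and 25%), with a median of -0.52 against -0.14. The Sfrp5-high cluster had 3 higher and 9 lower (background 11.1% and 22.7%), with a median of -0.49 against -0.13. Without Hkdc1, 23 rows remained, with 2 higher and 9 lower in the Sfrp5-high cluster and 2 and 10 in visceral endoderm. Extraembryonic ectoderm then had 13 and 2, and ectoplacental cone and giant cells 8 and 3, with no background recomputed.

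**Figure D1:**
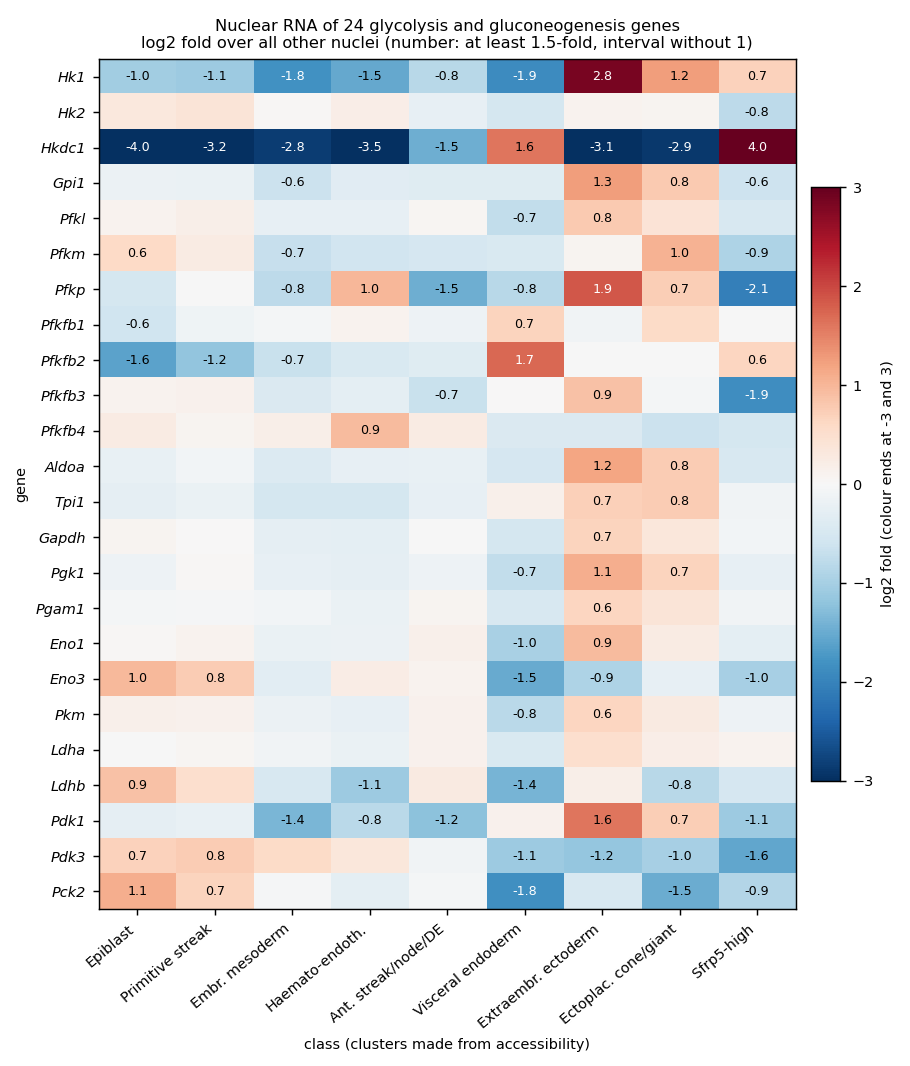
Log2 fold of nuclear RNA of the 24 counted rows (vertical axis) in the 9 groups (horizontal axis) over all other nuclei, as colour that ends at -3 and 3; a printed number marks a fold of at least 1.5 with an interval without 1. The extraembryonic ectoderm column is red for Gpi1, Aldoa, Tpi1, Gapdh, Pgk1, Pgam1, Eno1 and Pkm and blue for Eno3, and the Hkdc1 row is red only in visceral endoderm and the Sfrp5-high cluster.

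The 5 other classes are called embryonic below, as a short name only. Among them, haemato-endothelial progenitors had an extraembryonic mesoderm list at 518 CPM, above their embryonic mesoderm list at 407. The extraembryonic mesoderm list stood at 133 CPM in embryonic mesoderm and 25.6 in epiblast. The median log2 fold of the 24 was near that of all genes in epiblast (0.01 against -0.05) and primitive streak (0.05 against -0.03). Epiblast, from which the embryo itself forms, had 5 higher and 4 lower (background 10.8% and 17.1%), and primitive streak, where epiblast cells leave the layer, 3 and 3 (background 5.73% and 13.6%). Embryonic mesoderm had 0 higher and 7 lower (background 8.3% and 18.6%), with a median log2 fold of -0.29 against -0.05 for all genes. Haemato-endothelial progenitors had 2 higher and 4 lower (background 8.17% and 16.4%), with a median of -0.26 against -0.04. Anterior streak with node and definitive endoderm had 0 and 5 (background 6.71% and 12.7%), with a median of -0.15 against -0.06. Without Hkdc1, these 5 classes had 3, 2, 6, 3 and 4 of 23 rows lower, in the order given.

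Glucose phosphorylation, which traps glucose in the cell, was divided among 3 hexokinase genes whose RNA differed in place. Hk2, the inducible hexokinase II, was present at 189.9 to 411 CPM in all 9 groups and was highest in primitive streak. It was counted only in the Sfrp5-high cluster, 1.73-fold lower (1.64 to 1.83). Per kilobase of gene span it gave 78.1% to 98.5% of the hexokinase RNA in the 8 named classes and 39.7% in the Sfrp5-high cluster.

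Hk1, hexokinase I, which is widely used in adult tissues, was high in both placental classes and in the Sfrp5-high cluster. Its RNA stood at 74.1 CPM in extraembryonic ectoderm, 40.6 in ectoplacental cone and giant cells and 28.1 in the Sfrp5-high cluster. The 6 other classes had 5.52 to 10.3 CPM, so the placental lineage lay above all of them. The fold over other nuclei was 7.16 (6.62 to 7.73) in extraembryonic ectoderm, 2.38 (2.04 to 2.75) in ectoplacental cone and giant cells and 1.62 (1.39 to 1.88) in the Sfrp5-high cluster. The last of these was lost when doublet calls were kept, at a log2 fold of -0.028. Hk1 gave 17.7% of hexokinase UMIs in extraembryonic ectoderm (16.8 to 18.6) and 1.63% to 3.52% in the 5 embryonic classes. Per kilobase of gene span, which lowers the share of this long gene, these were 8.70% and 0.73% to 1.59%.

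The Hk1 promoter peak, which also overlaps the promoter window of Hk1os, varied less than Hk1 RNA. It held 57.1 CPM of peak counts in extraembryonic ectoderm against 48.9 to 55.2 in the embryonic classes, 37.1 in visceral endoderm and 69.3 in ectoplacental cone and giant cells, and was counted in none. That peak, at chr10:62339879-62340767 in the build of the files, lay at the start nearer to the gene's end, and no peak lay at the start farthest upstream. Single peaks outside promoters that are named here and below were picked after their values were seen. Their folds and intervals are a description. A peak inside the gene, at chr10:62329468-62330384 and 49982 bp downstream of the first start, held 52.5 CPM in extraembryonic ectoderm and 42.4 in ectoplacental cone and giant cells. In the 7 other groups it held 0.686 to 2.04 CPM. Its fold was 20.4 (17.7 to 23.5) in extraembryonic ectoderm and 7.12 (5.89 to 8.56) in ectoplacental cone and giant cells. Another peak of the gene, at chr10:62306150-62307040, held 20.4 CPM in extraembryonic ectoderm and 14.7 in ectoplacental cone and giant cells, against 0.758 in epiblast, but 9.20 in haemato-endothelial progenitors. Over the gene and 10 kb to each side, 7 of 26 peaks of at least 1 CPM and at no promoter were higher in extraembryonic ectoderm (background 16.8%). In at least 1 of the 9 groups, 21 of the 26 were higher, a count for which no background was computed.

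Hkdc1, a hexokinase-like protein that resembles the other hexokinases in sequence, had its RNA in the endoderm. It stood at 227 CPM in the Sfrp5-high cluster and 52.5 in visceral endoderm, followed by 9.26 in anterior streak with node and definitive endoderm and 3.74 or less in the 6 other classes. The folds were 16.0 (14.9 to 17.1) in the Sfrp5-high cluster and 3.03 (2.84 to 3.24) in visceral endoderm. Hkdc1 gave 51.0% of hexokinase UMIs in the Sfrp5-high cluster (49.2 to 52.8), 17.7% in visceral endoderm (16.9 to 18.6) and 3.16% or less elsewhere. Since Hkdc1 and Gckr were among the genes that led the Sfrp5-high cluster, their values there are a description of that cluster.

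Gckr encodes a protein that regulates glucose phosphorylation in liver cells. Of its 656 UMIs, 388 were in the Sfrp5-high cluster. It stood at 56.2 CPM there, 5.55 in visceral endoderm, 3.25 in anterior streak with node and definitive endoderm and 0.355 to 1.25 in the 6 other classes. The fold in the Sfrp5-high cluster was 29.1 (24.8 to 34.1).

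The promoters of both genes were open in visceral endoderm and in the Sfrp5-high cluster alike. The Hkdc1 promoter held 21.0 CPM in visceral endoderm and 20.5 in the Sfrp5-high cluster, against 0.324 to 2.57 in the 7 other classes. The Gckr promoter held 10.7 and 8.61 CPM in the same groups and 0.486 to 1.54 elsewhere. RNA of both genes was lower in visceral endoderm than in the Sfrp5-high cluster. The values were 52.5 and 227 CPM for Hkdc1 and 5.55 and 56.2 for Gckr. This is a description, since that cluster was set apart after its values had been seen. RNA and promoters were also read in classes from different assays, and no interval was made for these groups against each other. A peak inside Hkdc1, at chr10:62420381-62421286, was picked after its values were seen. It held 24.1 CPM in the Sfrp5-high cluster (10.6-fold over other nuclei, 8.52 to 13.2) and 8.02 in visceral endoderm.

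The 250 bases before each start are shown because these promoters were open in the endodermal groups and nearly closed elsewhere. They come from RefSeq (GRCm38.p6), run 5′ to 3′ on the transcript's strand and lie wholly inside the open peak. Capitals mark GTTAAT, a half-site of the liver factor Hnf1, on either strand. Hkdc1, chr10:62422458-62422707, minus strand, has no such match, and Gckr, chr5:31297313-31297562, plus strand, has one at position -59 from the start.
Hkdc1: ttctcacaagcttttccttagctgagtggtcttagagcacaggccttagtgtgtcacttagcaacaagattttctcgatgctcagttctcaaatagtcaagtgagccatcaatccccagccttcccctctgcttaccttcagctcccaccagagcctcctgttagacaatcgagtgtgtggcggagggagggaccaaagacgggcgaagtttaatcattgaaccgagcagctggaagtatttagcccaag
Gckr: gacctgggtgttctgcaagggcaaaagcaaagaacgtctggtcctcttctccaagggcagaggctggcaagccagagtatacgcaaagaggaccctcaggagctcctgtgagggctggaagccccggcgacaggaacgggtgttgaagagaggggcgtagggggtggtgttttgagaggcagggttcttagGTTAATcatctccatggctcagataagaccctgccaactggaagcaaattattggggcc
The letters GTTAAT, searched on both strands in windows from 250 bases before to 50 after a start, were in 7.10% of all 32851 RefSeq windows and in 4 of the 54 windows of the 34 genes (7.41%), those of Gckr, Pck1, G6pc and Pfkfb1. The Hnf4 core CAAAGTC was in 4.44% of all windows and in 1 of the 54, that of Fbp2. A match is a description of letters and not of binding.

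**Figure D2:**
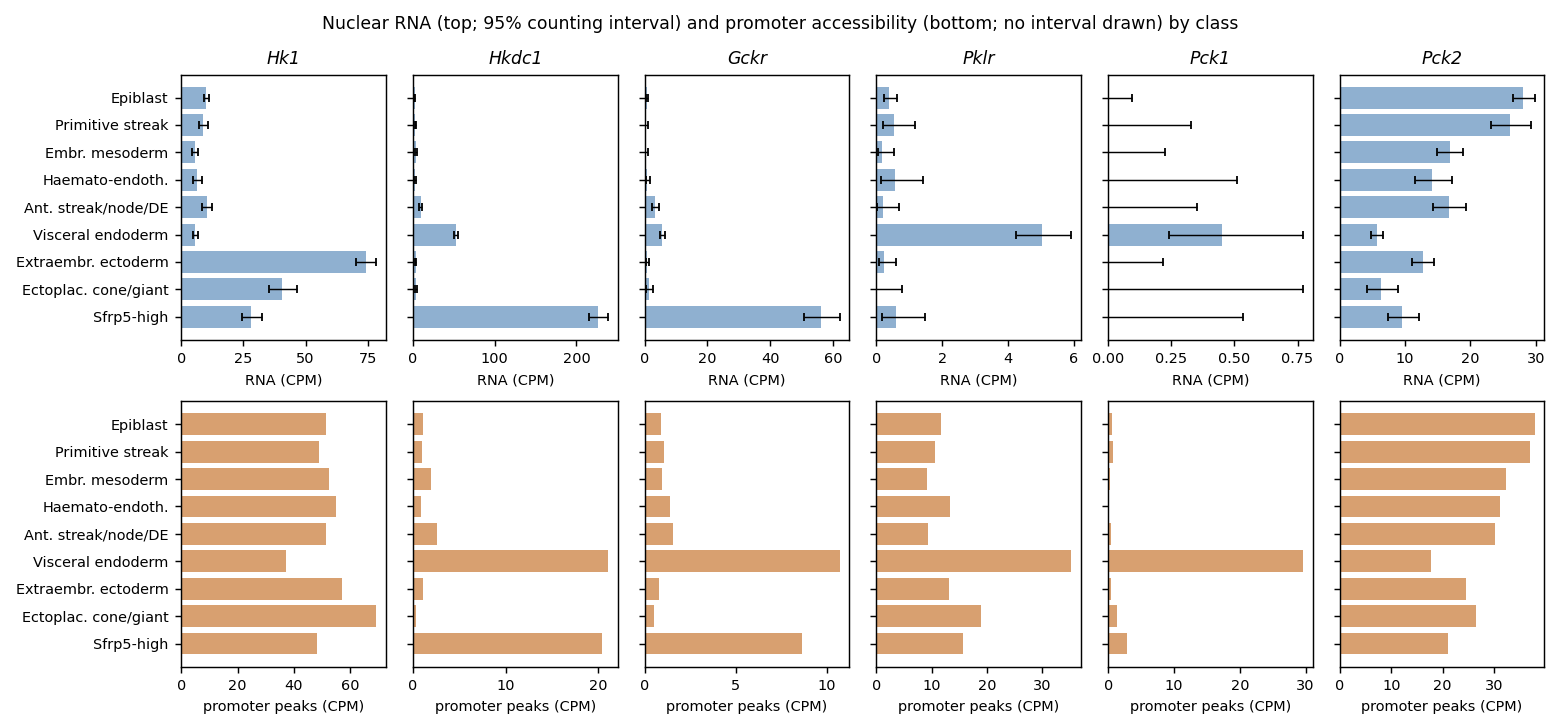
Nuclear RNA (top, CPM of UMIs, whiskers 95% counting interval) and promoter peak counts (bottom, CPM, no interval drawn) of 6 genes in the 9 groups. Hkdc1 and Gckr promoters are about level in visceral endoderm and the Sfrp5-high cluster, and the Hk1 promoter varies less across groups than its RNA. The Pck1 promoter stands at 29.6 CPM in visceral endoderm beside RNA under 1 CPM.

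The next committed step is phosphofructokinase, the main control point of glycolysis, which was made up mostly of liver-type Pfkl. Pfkl stood at 242 CPM in extraembryonic ectoderm (1.72-fold, 1.66 to 1.78) and was lowest in visceral endoderm (1.66-fold lower, 1.59 to 1.72). Per kilobase of gene span it gave 81.6% to 93.2% of phosphofructokinase RNA in every group. Its promoter, at 48.6 to 66.2 CPM, was counted in no group.

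Pfkp, the platelet-type subunit, varied far more than Pfkl. It stood at 101 CPM in extraembryonic ectoderm, 68.4 in haemato-endothelial progenitors and 58.8 in ectoplacental cone and giant cells, against 13.7 in anterior streak with node and definitive endoderm and 8.98 in the Sfrp5-high cluster. The 4 remaining classes lay between, at 22.0 to 35.9 CPM. The fold was 3.66 (3.45 to 3.87) in extraembryonic ectoderm and 1.99 (1.81 to 2.18) in haemato-endothelial progenitors, and 4.17-fold lower (3.25 to 5.44) in the Sfrp5-high cluster. Its share of phosphofructokinase UMIs was 32.6% in haemato-endothelial progenitors (30.2 to 35.0) and 6.98% in the Sfrp5-high cluster (5.39 to 8.86), and per kilobase of gene span 14.2% and 2.5%. The Pfkp promoter, too, varied less than its RNA, at 15.9 to 25.6 CPM. A peak inside the gene at chr13:6642279-6643173 held 8.11 CPM in extraembryonic ectoderm, 7.65 in haemato-endothelial progenitors and 5.83 in ectoplacental cone and giant cells, against 0.203 to 1.60 elsewhere. It was picked after its values were seen. Of 13 peaks near Pfkp and at no promoter, 5 were higher in extraembryonic ectoderm (background 16.8%). Visceral endoderm, where Pfkp RNA was low, also had 5 higher (background 17.7%).

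Pfkm, the muscle-type subunit, gave 3.60% to 8.12% of phosphofructokinase RNA per kilobase, and its highest value was 34.1 CPM in ectoplacental cone and giant cells (2.07-fold, 1.75 to 2.42). It was also counted as higher in epiblast at 22.7 CPM, just past the limit at 1.51-fold (1.39 to 1.64), and as lower in embryonic mesoderm and the Sfrp5-high cluster, at 11.1 and 9.13 CPM.

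The bifunctional enzymes Pfkfb1 to Pfkfb4 make and break down fructose 2,6-bisphosphate, the strongest activator of phosphofructokinase, and each had its own pattern. Pfkfb2, known from heart and kidney, stood at 36.1 CPM in visceral endoderm (3.32-fold, 3.05 to 3.61) and 24.2 in the Sfrp5-high cluster, and at 6.33 in epiblast (3.06-fold lower, 2.68 to 3.50). Pfkfb1, the liver isozyme, was counted as higher in visceral endoderm too, at 20.2 CPM (1.59-fold, 1.45 to 1.76), and was just short of the limit in ectoplacental cone and giant cells, at 20.9 CPM (1.499-fold, 1.21 to 1.83). Pfkfb3, the inducible form with high kinase activity, stood at 20.6 CPM in extraembryonic ectoderm (1.85-fold, 1.64 to 2.08) and 3.48 in the Sfrp5-high cluster (3.65-fold lower, 2.45 to 5.72). Pfkfb4 stood at 11.8 CPM in haemato-endothelial progenitors (1.92-fold, 1.52 to 2.40) and 4.18 to 7.54 in the others. Of the bifunctional UMIs, Pfkfb2 made up 49.0% in visceral endoderm (46.9 to 51.2) and 17.2% in epiblast (15.3 to 19.2), and Pfkfb3 37.8% and 7.52% in extraembryonic ectoderm and the Sfrp5-high cluster. Per kilobase of gene span, Pfkfb2 gave 59.1% in visceral endoderm and 23.8% in epiblast. Pfkfb3 gave 25.3% per kilobase in extraembryonic ectoderm, below the 39.5% of Pfkfb2 there, and 4.23% in the Sfrp5-high cluster.

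None of the Pfkfb2, Pfkfb3 and Pfkfb4 promoters was counted, and Pfkfb1 had no peak in its promoter window. Upstream of Pfkfb2, a peak at chr1:130733455-130734183 held 13.6 CPM in visceral endoderm (13.1-fold, 10.4 to 16.5) and 0.244 to 2.43 elsewhere. A second, at chr1:130737276-130738184, held 29.4 CPM in extraembryonic ectoderm (5.73-fold, 4.96 to 6.61), where Pfkfb2 RNA was 15.7 CPM and not counted.

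**Figure D3:**
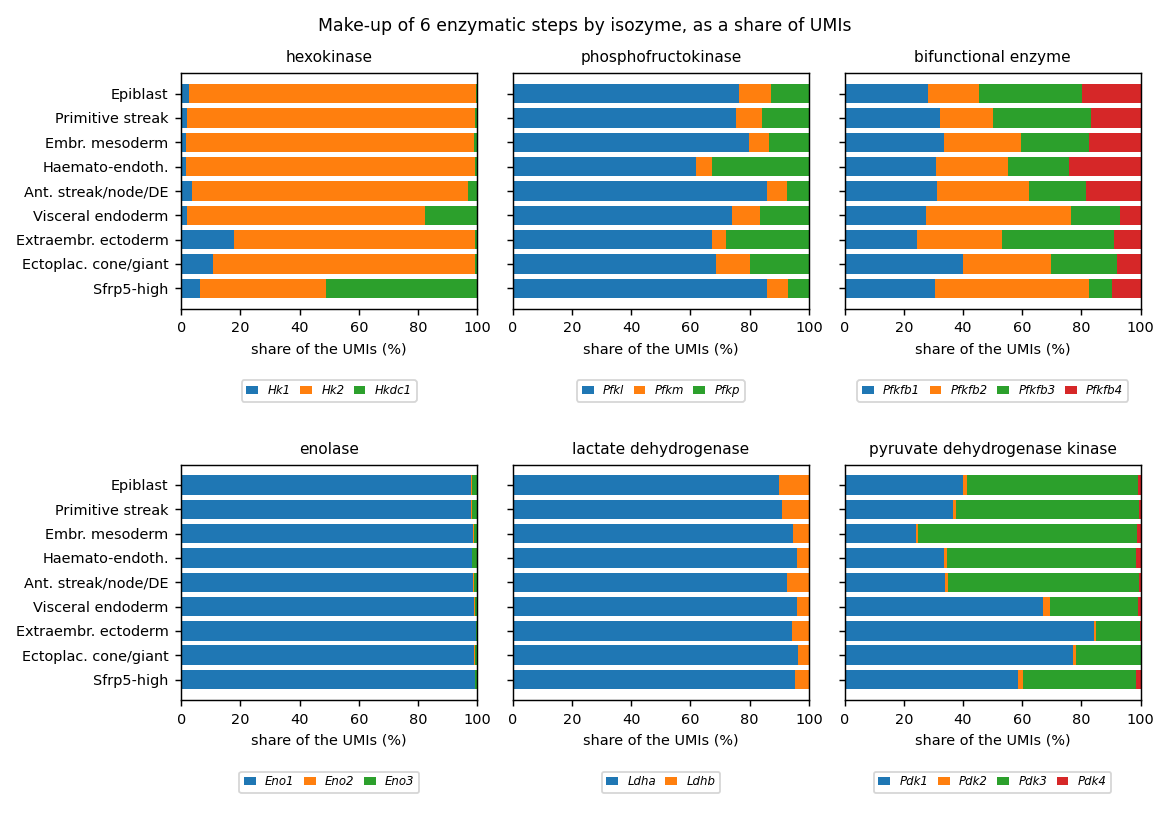
Share of the UMIs of 6 enzymatic steps (horizontal axis, percent) given by each isozyme (colour) in the 9 groups (vertical axis). The Hkdc1 share reaches 51.0% in the Sfrp5-high cluster, the Pfkp share 32.6% in haemato-endothelial progenitors and the Pdk1 share 84.4% in extraembryonic ectoderm, while enolase is at least 97.9% Eno1 in every group.

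Most enzymes from glucose phosphate isomerase to pyruvate kinase were higher in extraembryonic ectoderm. Of Gpi1, Aldoa, Tpi1, Gapdh, Pgk1, Pgam1, Eno1 and Pkm, all 8 were higher there (background 12.9%), at folds from 1.56 (Pkm, 1.54 to 1.58) to 2.38 (Gpi1, 2.32 to 2.45). Eno3, the other enolase that reached 5 CPM, was 1.89-fold lower there (1.49 to 2.43). Ldha, the lactate dehydrogenase A subunit, was at 1448 CPM there, its highest value, but under 1.5-fold. The same group of 8 with Hk2 and Ldha had a median log2 fold of 0.69 in extraembryonic ectoderm, 0.37 in ectoplacental cone and giant cells and -0.52 in visceral endoderm, and -0.26 to 0.02 in the 6 other groups.

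Gpi1, glucose phosphate isomerase, stood at 404 CPM in extraembryonic ectoderm and 334 in ectoplacental cone and giant cells, against 131 to 181 in the 7 other groups. Aldoa, the aldolase of most tissues, stood at 833 and 698 CPM in the same 2 classes, against 305 to 398, and the 2 sets did not overlap. Tpi1, triose phosphate isomerase, stood at 619 and 673 CPM against 287 to 444. The highest of those others was visceral endoderm, where the 9 other genes of this group had folds below 1. Pgk1, phosphoglycerate kinase on the X chromosome, stood at 1051 and 871 CPM against 364.5 in visceral endoderm and 471 to 573 in the rest.

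Gapdh, glyceraldehyde phosphate dehydrogenase, had the most UMIs per kilobase of gene span of the 34 (42913) and ranged from 1009 CPM in visceral endoderm to 2017 in extraembryonic ectoderm. Pkm, which encodes the M1 and M2 splice forms of pyruvate kinase that gene counts do not separate, ranged from 779 to 1835 CPM in the same classes. Eno1, the ubiquitous enolase, ranged from 350.3 to 1074 CPM, and was 1.95-fold lower in visceral endoderm (1.91 to 1.99). Pgam1, phosphoglycerate mutase, ranged from 397 to 769 CPM. In all 4, visceral endoderm was lowest and extraembryonic ectoderm highest of the 9 groups. Eno1b, a near-identical copy of Eno1, was highest in extraembryonic ectoderm at 59.4 CPM and lowest in visceral endoderm at 20.7, and reads of the pair may have been divided between them.

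**Figure D4:**
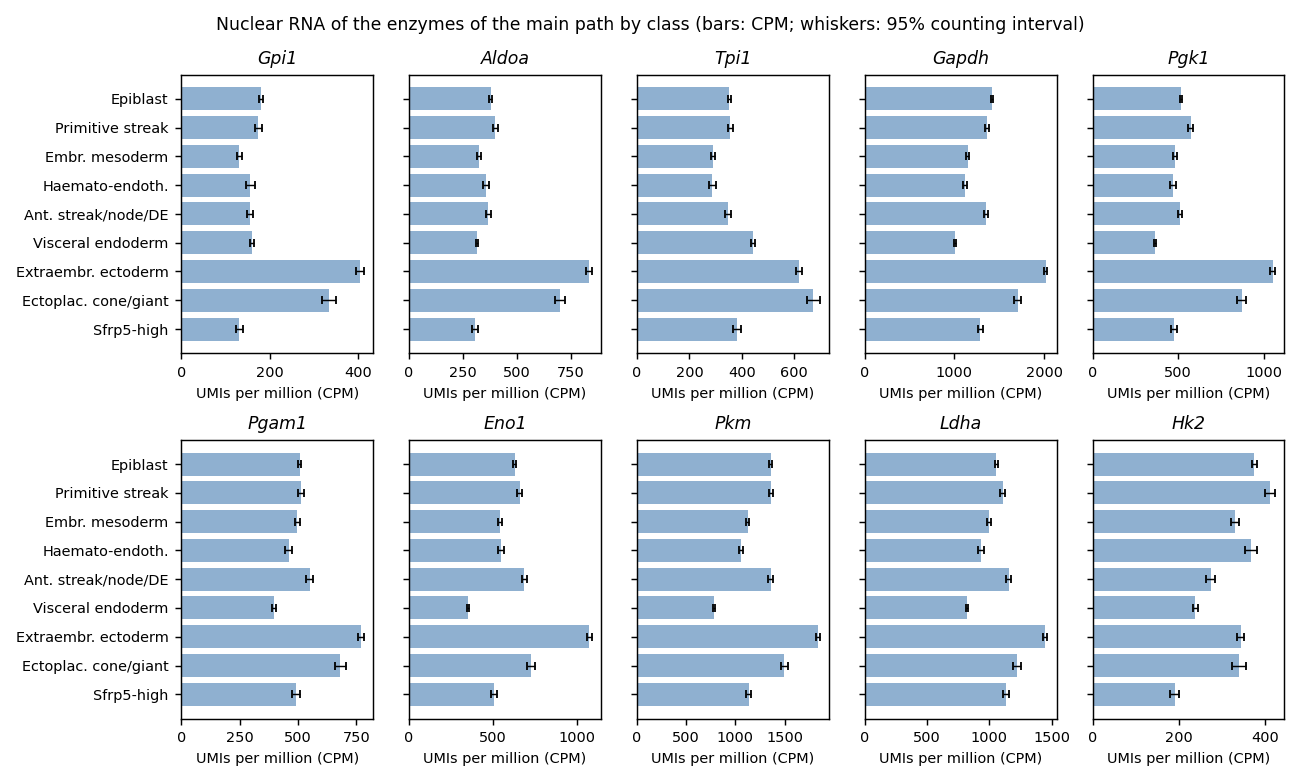
Nuclear RNA of 10 enzymes of the main path (CPM of UMIs, horizontal axes starting at 0) in the 9 groups; bars are the pooled value of a group and whiskers the 95% counting interval. Extraembryonic ectoderm has the longest bar in 8 of the 10 panels (Tpi1 is longest in ectoplacental cone and giant cells, Hk2 in primitive streak).

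The share of UMIs from ribosomal protein genes was 9.61% in extraembryonic ectoderm and 9.79% in ectoplacental cone and giant cells, against 6.10% to 8.28% in the 7 other groups. This share was thus highest in the same classes as the enzymes, and whether it reflects cytoplasmic RNA was not tested. Mitochondrial RNA stood at 1077 and 1108 CPM there against 695 to 1088 in the 7 others, epiblast being the highest of those. An unnamed cluster of 164 nuclei, outside the 9 groups, had the most mitochondrial RNA (3178 CPM) and a ribosomal protein share of 13.7%. Its Pkm (2334 CPM), Ldha (1634), Eno1 (1099) and Pgam1 (907) lay above those of extraembryonic ectoderm, and its Gapdh (1962), Pgk1 (842) and Pdk1 (32.1) below. The part of ribosomal protein and mitochondrial RNA in the class differences was not tested. The alternatives that follow are given as values, and no background was computed for their counts. With only nuclei at or below the median ribosomal share, extraembryonic ectoderm kept 215 nuclei and 9 of 24 rows higher. Log2 folds were then 1.19 for Gpi1, 0.92 for Aldoa, 0.79 for Eno1 and 0.76 for Pgk1, but 0.51 for Tpi1, 0.48 for Pkm, 0.39 for Gapdh and 0.34 for Pgam1, below 1.5-fold. Hk1 (3.03), Pfkp (1.89) and Pdk1 (1.82) were no lower in those nuclei than in all, where the log2 folds were 2.84, 1.87 and 1.59. Only 43 nuclei of ectoplacental cone and giant cells passed, too few for a value. With only nuclei of lower mitochondrial share, 25 rows reached 5 CPM, and 13 were higher and 5 lower in extraembryonic ectoderm. The alternative with lower ribosomal share was chosen after the data had been seen.

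The promoters of these enzymes did not differ to the same degree. Over the 8 named classes, 4 of 248 pairs of gene and class were higher and 26 lower at the promoter (background 4.99% and 9.63%), against 34 and 40 of 192 pairs in RNA (background 10.2% and 19.3%). These counts were partly set by the minimum of 5 CPM, which the promoters of Hkdc1, Pck1 and Fbp1 reached only through the groups where they were higher (2.10, 1.60 and 4.22 CPM outside them). Without these 3 promoters, 1 of 224 pairs was higher and 9 lower, and without Hkdc1 RNA 33 and 33 of 184, with no background recomputed. No promoter of the 31 that reached 5 CPM was higher in extraembryonic ectoderm (background 3.6%) or in ectoplacental cone and giant cells (background 11.1%), and 5 were lower in each (background 19.3% and 21.1%), or 2 in each of the 28 without those 3. Against epiblast alone, 1 was higher in extraembryonic ectoderm and 5 in ectoplacental cone and giant cells. The latter had 1 higher with classes from accessibility, with a minimum of 2000 UMIs and 2000 peak counts, or with 2000 bp to each side of a start. No background was computed for these alternatives, so their counts cannot be set against those of all promoters. The Aldoa promoter held 91.7 and 99.3 CPM in these classes against 61.1 to 74.8 in the rest, and the Pgk1 promoter 41.2 and 42.4 against 26.6 to 37.6, both under 1.5-fold. The Gpi1 promoter, at 27.3 and 29.5 CPM, lay within the 24.2 to 35.2 CPM of the others. Of 72 pairs counted in RNA that had a promoter peak, 59 (81.9%) had a promoter fold of the same sign and 13 (18.1%) were also counted at the promoter, where all genes gave 74.8% and 20.1%. Hkdc1 made up 8 of the 59 and 8 of the 13. Without it, 51 of 64 pairs had the same sign and 5 were counted at the promoter, with no background recomputed.

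By class, the promoter counts were small throughout, and those of Hkdc1, Pck1 and Fbp1 are given as a description. Visceral endoderm had 3 higher (Hkdc1, Pklr and Pck1) and 3 lower (Eno3, Fbp1 and Pck2), with backgrounds of 4.92% and 20.5%. Epiblast had 1 higher (Fbp1) and 2 lower (Hkdc1 and Pck1; background 11.7% and 2.32%). Primitive streak had 0 and 2 (background 2.83% and 1.77%), embryonic mesoderm 0 and 3 (2.37% and 4.34%), haemato-endothelial progenitors 0 and 3 (2.04% and 5.65%) and anterior streak with node and definitive endoderm 0 and 3 (1.3% and 2.03%), in each of which Hkdc1 and Pck1 were among the lower. Without these 3 promoters, visceral endoderm had 1 higher (Pklr) and 2 lower, the 5 embryonic classes 0 higher and 0 or 1 lower, and the Sfrp5-high cluster 0 and 1. With them, the Sfrp5-high cluster had 1 higher (Hkdc1) and 3 lower (background 2.7% and 15.2%).

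Peaks outside promoters gave another picture near the same genes. Within 10 kb of the 34 genes lay 210 such peaks of at least 1 CPM, and 51 of them (24.3%) were higher in extraembryonic ectoderm, where 16.8% of all 134947 such peaks were. The same class had 59 lower (background 48%). The counts higher and lower were 28 and 39 in ectoplacental cone and giant cells (background 11.1% and 23.4%), 44 and 90 in visceral endoderm (17.7% and 52%) and 32 and 52 in the Sfrp5-high cluster (16.8% and 28.4%). In the embryonic classes they were 35 and 67 in epiblast (25.1% and 31.2%), 15 and 41 in primitive streak (9.82% and 18.7%), 27 and 56 in embryonic mesoderm (17.2% and 28.1%), 16 and 49 in haemato-endothelial progenitors (12.7% and 23.6%), and 18 and 41 in anterior streak with node and definitive endoderm (14.1% and 18.5%). Those higher in extraembryonic ectoderm included 4 of 5 near Gpi1, 2 of 2 near Tpi1, 5 of 7 near Pkm and 5 of 9 near Eno1. Near other core genes there were fewer, with 2 of 5 near Gapdh, 1 of 8 near Ldha, 0 of 3 near Aldoa, 0 of 2 near Pgk1 and 0 of 4 near Pgam1. The strongest near Tpi1, at chr6:124805256-124806343, held 87.6 CPM in extraembryonic ectoderm and 102 in ectoplacental cone and giant cells against 23.5 to 30.9 in the others. Near Pkm, the peak at chr9:59687151-59688068 held 29.2 and 37.7 CPM against 8.74 to 13.2. Whether a peak acts on the gene it lies near was not tested.

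The promoters of Pgk1 and Ldha are shown as 2 of the core genes that carry ACGTG, which is part of the site bound by hypoxia-inducible factors and also of the E-box CACGTG. They are RefSeq sequences (GRCm38.p6) 5′ to 3′, both on the plus strand, of the 250 bases before the start, at chrX:106186850-106187099 and chr7:46845554-46845803. Capitals mark ACGTG on either strand, so CACGT is its other strand.
Pgk1: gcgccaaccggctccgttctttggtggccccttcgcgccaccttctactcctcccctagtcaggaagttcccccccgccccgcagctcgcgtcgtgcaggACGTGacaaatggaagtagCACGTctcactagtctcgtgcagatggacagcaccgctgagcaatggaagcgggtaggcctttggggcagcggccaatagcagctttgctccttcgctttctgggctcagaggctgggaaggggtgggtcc
Ldha: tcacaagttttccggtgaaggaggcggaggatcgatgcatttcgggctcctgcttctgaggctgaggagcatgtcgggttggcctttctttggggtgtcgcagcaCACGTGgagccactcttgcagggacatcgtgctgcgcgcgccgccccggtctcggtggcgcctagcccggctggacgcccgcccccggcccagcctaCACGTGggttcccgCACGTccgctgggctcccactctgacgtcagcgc
ACGTG was in 19 of the 54 windows of the 34 genes (35.2%) and in 19.6% of all windows. GCGTG, the other common form of the hypoxia core, was in 27 (50%) and in 32.4% of all. CACGTG, which contains ACGTG, was in 6 (11.1%) and in 7.15% of all. Of the core genes, Gpi1, Tpi1 and Eno1 had no ACGTG in their windows, and Gpi1 and Tpi1 had no GCGTG either. Some genes have several overlapping windows, so these shares are not counts of independent promoters. The windows were not matched for base composition. Of the hypoxia response genes outside the 34, 3 of 10 were higher and 2 lower in extraembryonic ectoderm (background 12.9% and 25.7%), 4 and 3 in ectoplacental cone and giant cells (11.9% and 25.1%) and 3 and 3 in visceral endoderm (17% and 25%). The counts were 0 and 5 in epiblast and in primitive streak, 1 and 6 in embryonic mesoderm, 2 and 3 in haemato-endothelial progenitors, 1 and 3 in anterior streak with node and definitive endoderm, and 2 and 4 in the Sfrp5-high cluster, with the backgrounds given for these groups above. Ndrg1, a stress-response gene, stood at 222 CPM in ectoplacental cone and giant cells and 59.2 in extraembryonic ectoderm, and Ankrd37 at 33.7 and 15.4. Epas1, which encodes the hypoxia-inducible factor HIF-2 alpha, instead stood at 33.2 CPM in visceral endoderm and at 8.88 or less in the other groups.

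The tissue-restricted isozymes were rare. Eno3, the muscle enolase, was highest in primitive streak and epiblast at 12.3 and 11.9 CPM (1.71-fold, 1.42 to 2.04, and 1.96-fold, 1.73 to 2.21) and lowest in visceral endoderm at 3.09 (2.84-fold lower, 2.28 to 3.56). Of its 2 promoter peaks, the one nearer the start, at chr11:70656555-70657362, held 12.4 CPM in epiblast and 1.88 in visceral endoderm. The other overlaps the promoter of Pfn1. Aldoc, the brain aldolase, had 330 UMIs and 1.21 to 3.57 CPM, and Eno2, the neuronal enolase, 150 UMIs and at most 1.87 CPM. Slc2a2, a glucose transporter outside the 34, stood at 116 CPM in visceral endoderm and at a near-constant 5.44 to 7.36 in every other group. As a caution, values of a few CPM in groups where a gene was low were not read as expression. The source of the low Slc2a2 values was not tested, and no floor was estimated for other genes.

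Pklr, the pyruvate kinase of liver and red cells, was found mainly in visceral endoderm. Visceral endoderm had 145 of its 189 UMIs, at 5.03 CPM, against at most 0.579 in the other groups, and the fold was 13.4 (9.47 to 19.2). It gave 1.36% of pyruvate kinase RNA per kilobase there, beside Pkm. Its promoter peak held 35.3 CPM in visceral endoderm (2.84-fold, 2.56 to 3.15) and 9.16 to 18.9 elsewhere. A peak at chr3:89133525-89134329, centred at -2215 bp from the first start, held 22.1 CPM in visceral endoderm, 10.4 in the Sfrp5-high cluster and 0.629 or less in the others (14.4-fold, 11.9 to 17.5). The promoter peak, chr3:89136215-89137108, covered the second of the RefSeq starts and began after the first. The bases before that second start, chr3:89136373-89136622 on the plus strand, hold TATAAA (capitals) at position -31, where 13.6% of all windows hold it anywhere.
Pklr: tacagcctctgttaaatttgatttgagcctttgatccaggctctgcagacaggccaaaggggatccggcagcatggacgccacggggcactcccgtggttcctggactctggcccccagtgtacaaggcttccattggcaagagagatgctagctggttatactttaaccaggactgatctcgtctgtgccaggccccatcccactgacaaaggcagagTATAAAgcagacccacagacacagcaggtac
The window of the first start held no TATAAA.

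Lactate dehydrogenase was mostly Ldha, at 821 CPM in visceral endoderm to 1448 in extraembryonic ectoderm and counted nowhere. Ldhb, the subunit of oxidative tissues, stood at 118 CPM in epiblast (1.84-fold, 1.77 to 1.91), 108 in primitive streak and 92.7 in anterior streak with node and definitive endoderm. It stood at 34.2 CPM in visceral endoderm (2.62-fold lower, 2.45 to 2.80) and 37.9 in haemato-endothelial progenitors (2.13-fold lower, 1.89 to 2.41). Ldhb thus made up 10.0% of lactate dehydrogenase UMIs in epiblast (9.77 to 10.3) and 3.91% in haemato-endothelial progenitors (3.47 to 4.39). Its promoter, at 17.0 to 24.4 CPM, was not counted in any group.

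The pyruvate dehydrogenase kinases, which switch off the entry of pyruvate into the mitochondrial cycle, were mainly Pdk1 and Pdk3, which differed in place. Pdk1, a hypoxia-induced kinase in other cells, stood at 140.2 CPM in extraembryonic ectoderm (3.02-fold, 2.88 to 3.17), 93.3 in ectoplacental cone and giant cells (1.66-fold, 1.5 to 1.83) and 61.5 in visceral endoderm. It stood at 23.7 CPM in embryonic mesoderm (2.61-fold lower, 2.35 to 2.89), 25.6 in anterior streak with node and definitive endoderm and 27.7 in the Sfrp5-high cluster. Pdk3 was highest in embryonic classes, with 83.3 CPM in primitive streak, 72.9 in embryonic mesoderm and 71.9 in epiblast against 24.6 in extraembryonic ectoderm (2.25-fold lower, 2.04 to 2.48), 26.6 in ectoplacental cone and giant cells and 18.1 in the Sfrp5-high cluster, where both kinases were lower. Pdk1 gave 84.4% of the kinase UMIs in extraembryonic ectoderm (83.0 to 85.7) and 24% in embryonic mesoderm (21.9 to 26.2). Per kilobase of gene span, Pdk3 gave more than Pdk1 in embryonic mesoderm only (54.2%), and Pdk1 more in the 8 other groups.

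The Pdk3 promoter was lower in 2 of the 4 groups where its RNA was, at 13.8 CPM in extraembryonic ectoderm (1.52-fold lower, 1.28 to 1.81) and 9.23 in ectoplacental cone and giant cells (2.23-fold lower, 1.57 to 3.29), against 17.8 to 25.1 in the others. In visceral endoderm and the Sfrp5-high cluster, where the RNA was lower too, it held 20.7 and 20.2 CPM and was not counted. The Pdk1 promoter, at 43.3 to 63.7 CPM, was counted nowhere. A peak centred at -6442 bp from the Pdk1 start, at chr2:71866366-71867199, held 16.7 CPM in extraembryonic ectoderm (5.02-fold, 4.18 to 6.0) and 11.6 in visceral endoderm, but 1.13 in ectoplacental cone and giant cells. Pdk2 and Pdk4 had 207 and 123 UMIs, at most 2.08 and 1.67 CPM. The Pdk4 promoter held 10.4 CPM in ectoplacental cone and giant cells (2.51-fold lower, 1.80 to 3.64) against 18.1 to 31.3 elsewhere.

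**Figure D5:**
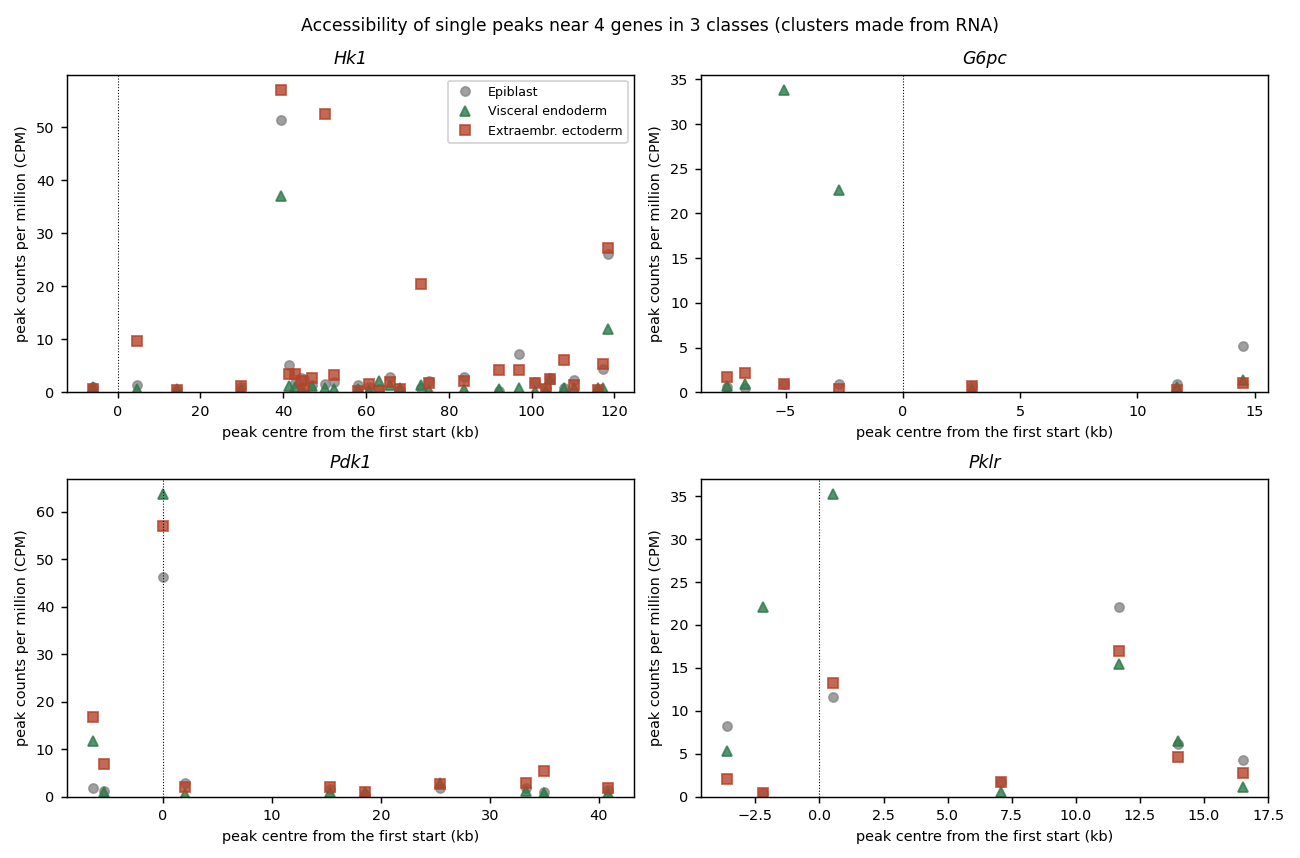
Peak counts (CPM, vertical axis) of single peaks by the distance of their centre from the first start (kb, horizontal axis) for Hk1, G6pc, Pdk1 and Pklr in epiblast, visceral endoderm and extraembryonic ectoderm, each the pooled value of 1 class. Near Hk1 the peak at about 50 kb stands at 52.5 CPM in extraembryonic ectoderm alone of these 3, and upstream of G6pc 2 peaks stand at 33.9 and 22.6 CPM in visceral endoderm.

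Genes of gluconeogenesis had almost no RNA, apart from Pck2. Pck2, the mitochondrial phosphoenolpyruvate carboxykinase, had 2509 UMIs and stood at 28.1 CPM in epiblast (2.12-fold, 1.96 to 2.30) and 26.1 in primitive streak (1.59-fold, 1.4 to 1.79). The lowest values were 5.62 in visceral endoderm (3.58-fold lower, 3.05 to 4.22) and 6.27 in ectoplacental cone and giant cells (2.80-fold lower, 1.96 to 4.17). Its promoter was in the same order at the ends, with 37.9 CPM in epiblast and 17.7 in visceral endoderm (1.84-fold lower, 1.62 to 2.10).

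Pck1, the cytosolic form and the classic marker of hepatic gluconeogenesis, had 16 UMIs in all kept nuclei, of which 13 were in visceral endoderm and none in the 8 other groups. Its promoter, in contrast, was open mainly in visceral endoderm, and reached 5 CPM only through that class (1.60 CPM outside it). It held 29.6 CPM in visceral endoderm (18.5-fold, 15.5 to 22.3), 2.94 in the Sfrp5-high cluster and 0.163 to 1.30 in the 7 others. This promoter, chr2:173152823-173153072 on the plus strand before the RefSeq start, is shown because it was open beside nearly absent RNA, with GTTAAT in capitals, here on the other strand as ATTAAC, at position -192.
Pck1: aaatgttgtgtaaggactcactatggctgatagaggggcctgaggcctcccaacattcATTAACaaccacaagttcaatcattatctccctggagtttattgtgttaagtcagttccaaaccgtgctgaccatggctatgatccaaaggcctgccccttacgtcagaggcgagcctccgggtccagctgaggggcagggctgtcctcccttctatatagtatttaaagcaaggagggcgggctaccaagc
No CAAAGTC and no TATAAA was in its window. A peak 9074 bp downstream of the start, at chr2:173161664-173162579, instead held 18.5 CPM in anterior streak with node and definitive endoderm (13.1-fold, 10.5 to 16.3).

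G6pc, the catalytic subunit of glucose 6-phosphatase that releases free glucose, had 0 UMIs, which allows up to 0.0206 CPM over all kept nuclei. It had no promoter peak. The 2 peaks upstream, at chr11:101362063-101362960 and chr11:101364395-101365318, held 33.9 and 22.6 CPM in visceral endoderm (10.6-fold, 9.18 to 12.2, and 10.5-fold, 8.86 to 12.5). The first also held 24.3 CPM in the Sfrp5-high cluster, the second 1.92, and the other classes held 0.351 to 4.89 in either. Their centres lie at -5050 and -2704 bp from the start.

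Fbp1 and Fbp2, the liver and muscle fructose bisphosphatases, had 67 and 32 UMIs. The Fbp1 promoter held 9.20 CPM in epiblast (2.18-fold, 1.88 to 2.53) and 1.13 to 7.82 elsewhere, lowest in ectoplacental cone and giant cells. A peak inside the gene, at chr13:62879681-62880602, held 17.7 CPM in epiblast (2.63-fold, 2.35 to 2.95) and 1.7 in visceral endoderm. The Fbp2 promoter, under the limit for counting, held 6.76 CPM in extraembryonic ectoderm and 8.58 in ectoplacental cone and giant cells, against 0.733 to 3.34 elsewhere.

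Lists of genes around the path, outside the 34, were small. Of 3 glucose transporters that reached 5 CPM, 2 were higher and 1 lower in visceral endoderm (background 17% and 25%), 1 and 1 in extraembryonic ectoderm (12.9% and 25.7%) and in the Sfrp5-high cluster (11.1% and 22.7%), 1 and 2 in ectoplacental cone and giant cells (11.9% and 25.1%), and 0 and 2 or 3 in the embryonic classes. Of 9 genes of lactate and pyruvate transport and pyruvate dehydrogenase, 2 were higher and 1 lower in visceral endoderm (background 17% and 25%), 2 and 0 in extraembryonic ectoderm (12.9% and 25.7%), 1 and 1 in the Sfrp5-high cluster (11.1% and 22.7%), 0 and 0 in ectoplacental cone and giant cells (11.9% and 25.1%), and 0 and 1 to 3 in the embryonic classes (5.73% to 10.8% and 12.7% to 18.6%). Among the glucose transporters, Slc2a1 (GLUT1) stood at 618 CPM in extraembryonic ectoderm and as high in ectoplacental cone and giant cells, against 135 in embryonic mesoderm. Slc2a3 (GLUT3) stood at 1729 CPM in visceral endoderm and 1363 in the Sfrp5-high cluster, against 162 to 627 in the others. Among monocarboxylate transporters, Slc16a1 (MCT1) stood at 1227 CPM in the Sfrp5-high cluster and 719 in visceral endoderm, while Slc16a3 (MCT4), the lactate exporter of glycolytic cells, stood at 281 in extraembryonic ectoderm and 53.7 in visceral endoderm. Visceral endoderm thus had high RNA of Slc2a3 and Slc16a1 beside the lowest RNA of Gapdh, Pgk1, Eno1, Pkm and Ldha among the groups. Of 12 genes of the tricarboxylic acid cycle, 5 were higher and 0 lower in extraembryonic ectoderm (background 12.9% and 25.7%), 2 and 0 in ectoplacental cone and giant cells (11.9% and 25.1%), 1 and 0 each in visceral endoderm (17% and 25%) and the Sfrp5-high cluster (11.1% and 22.7%), and none in the embryonic classes. In extraembryonic ectoderm, Mdh2, malate dehydrogenase, stood at 422 CPM and Idh3a, of isocitrate dehydrogenase, at 140.4 against 186 to 258 and 54.9 to 71.3 in the groups outside the placental lineage.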

How the data were processed

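Nuclear RNA and accessible chromatin of 1 pool of E7.0 mouse embryos were measured together. The deposited matrix holds raw counts, UMIs per gene and counts at peaks, made with Cell Ranger ARC 2.0.0 and build mm10, per the submitters' processing notes; how multi-mapping reads were treated and how peaks were called is not given in the sources used here. Of nonzero peak counts, 86.4% were even, so promoter intervals used estimated fragments.

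A nucleus was kept with 1000 or more UMIs, 500 or more genes detected, 1000 or more peak counts and no more than 20% of UMIs from mitochondrial genes. Doublets were called with Scrublet at an expected rate of 0.1 and removed (1154 calls, 7.52% of barcodes). Clusters (python 3.11.15, scanpy 1.11.5, leidenalg 0.10.2, resolution 1, 2000 variable genes, 30 components, 15 neighbours) left out the 34 genes and their promoter peaks. A promoter is any peak that overlaps the 1000 bp before a start or the 100 bp after it. Counts were summed per class, with exact intervals from scipy 1.17.1. The procedure was tested on Poisson counts simulated for extraembryonic ectoderm over 11391 genes, where 95.3% of intervals held the true fold. The intervals assume Poisson counts too, so this checked the calculation and not the spread between real nuclei.

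All 34 genes are named, those under 50 UMIs by count only. Genes outside them are named where counted in a class, at most 3 per list by size of fold, except Eno1b, named after its values had been seen. Some items are not reported here. The members and lists were chosen with earlier results of these data known. Alternatives covered nucleus filters, doublets, resolution, reference, scaling, fold and promoter window. Parietal endoderm (29 nuclei) was not compared.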

Additional observations from a re-analysis of the deposited data

How the results depend on the processing

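The 164 gene and class pairs past 1.5-fold (115 in RNA and 49 at promoters) were recomputed under the alternatives. With classes from the same assay, 156 of 161 stayed past 1.5-fold in the same direction, with median-ratio scaling 158 of 161, and with a reference without the unnamed nuclei, chosen after the data had been seen, 161 of 161. Fewer stayed with doublet calls kept (148 of 161), with lower ribosomal protein share (79 of 98), with 2000 bp to each side of a start (34 of 49) and against epiblast (96 of 144). Over the 8 named classes, pairs higher in RNA numbered 34 and lower 40. They were 21 and 23 at resolution 0.5, where primitive streak, visceral endoderm and ectoplacental cone were not named, and 11 and 24 at a fold of 2. With nuclei of lower ribosomal protein share, chosen after the data had been seen, 21 were higher and 29 lower, over 7 classes, since ectoplacental cone, with 8 of the 34 higher, had too few nuclei. Promoter pairs, 4 higher and 26 lower, were 12 and 15 against epiblast, and 8 were higher with no filter on low values. No background was computed for the counts under the alternatives. The leading isozyme of a step differed from that over all nuclei in 14 pairs of step and named class (without the Sfrp5-high cluster), in 7 per kilobase of gene span, and in 7 with lower ribosomal protein share. Of the 14, 2 pairs, and of the 7 per kilobase, 4 pairs were Fbp1 against Fbp2 on 4 to 20 UMIs, ties included.

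Signs changed in these log2 folds. Pdk4 RNA in haemato-endothelial progenitors was -0.16 with at least 2000 UMIs and 2000 peak counts, -0.49 at resolution 2 and -0.018 with lower ribosomal protein share. The Pck1 promoter in the Sfrp5-high cluster was 1.03 with the same 2000 minimum, 1.33 at resolution 0.5 and 2.40 against epiblast. Hk1 RNA in the Sfrp5-high cluster was -0.028 with doublet calls kept. Against epiblast, Hkdc1 RNA was 0.55 in primitive streak, 0.90 in embryonic mesoderm, 0.15 in haemato-endothelial progenitors, 2.21 in anterior streak, 0.63 in extraembryonic ectoderm and 0.74 in ectoplacental cone. Gckr RNA was 0.32, 0.074 and 0.91 in haemato-endothelial progenitors, extraembryonic ectoderm and ectoplacental cone, Pfkfb2 RNA 0.20 and 0.73 in primitive streak and embryonic mesoderm, Pklr RNA 0.47 and Pck2 RNA -0.11 in primitive streak, and Hk1 RNA 0.038 in anterior streak. Against epiblast, the Gckr promoter was 0.24, 0.073, 0.63 and 0.78 in primitive streak, embryonic mesoderm, haemato-endothelial progenitors and anterior streak, the Pck1 promoter 0.48 in primitive streak and 1.22 in ectoplacental cone, and the Hkdc1 promoter 0.93, 1.29 and 0.071 in embryonic mesoderm, anterior streak and extraembryonic ectoderm. With 2000 bp to each side of a start, the Gckr promoter was 0.087 in epiblast and 0.027 in haemato-endothelial progenitors, and the Fbp2 promoter 0.044 in the latter. The cause was not tested, beyond the change of reference itself.

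Median-ratio scaling took out a median log2 fold of all genes of -0.14 in visceral endoderm and -0.13 in the Sfrp5-high cluster for RNA, and of 0.11 in visceral endoderm and 0.19 in ectoplacental cone for promoters. No paired analysis was possible because each assay had 1 library. Genes under 5 CPM are limited by depth.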

Other observations

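A mixed list of glycogen and pentose phosphate genes, outside the 34, had 13 genes that reached 5 CPM. Of these, 7 were higher and 0 lower in ectoplacental cone and giant cells (background 11.9% and 25.1%), 5 and 1 in extraembryonic ectoderm (12.9% and 25.7%), 4 and 2 in visceral endoderm (17% and 25%) and 2 and 1 in the Sfrp5-high cluster (11.1% and 22.7%). In the 5 embryonic classes, 0 or 1 were higher and 3 to 5 lower, where backgrounds ran from 5.73% to 10.8% higher and from 12.7% to 18.6% lower. Gys1, glycogen synthase of most tissues, stood at 89.3 CPM in ectoplacental cone and giant cells (3.74-fold, 3.37 to 4.14) against 16.3 to 35.4 in the other groups. Pygb, a glycogen phosphorylase, stood at 89.5 CPM in the same class and 72.9 in visceral endoderm, and at 13.6 in embryonic mesoderm. The ribosomal protein share was also highest in that class, at 9.79%, and its part in these values was not tested.

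Single genes near the end of the path to glucose are given as values. Slc37a4, the glucose 6-phosphate transporter, stood at 14.6 CPM in visceral endoderm (2.51-fold, 2.21 to 2.83). G6pc3, the widely expressed glucose 6-phosphatase, stood at 22.5 CPM in the Sfrp5-high cluster (1.77-fold, 1.5 to 2.09).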
